A study of Canis lupus familiaris with 13 samples.

Results

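Expression in skeletal muscle was examined for 9 genes that respond to tissue injury and inflammation: CCL2, THBS1, TIMP1, HMOX1, SOCS3, TNC, PLAUR, NFKBIA and CEBPB. They were chosen by symbol, and they bear on whether taking a biopsy from the same animal more than once leaves an injury signal. Of the 9 symbols, 7 matched a row among the 30951 genes of the count table, and all 7 passed the filter on low counts that left 14629 genes. CCL2 and SOCS3 matched no symbol and are not analysed here.

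A muscle that is cut releases signals from broken fibres, and resident and arriving cells answer with cytokines. NFKBIA and CEBPB belong to the signalling side of that answer. NFKBIA encodes the inhibitor that holds NF-kB in the cytoplasm and is itself switched on by NF-kB, so its transcript is a common readout of the pathway. CEBPB encodes a transcription factor of the acute phase response and of macrophages. HMOX1 encodes the inducible enzyme that breaks down heme, which reaches tissue from lysed red blood cells and damaged muscle. The other 4 genes act in the matrix: THBS1 and TNC encode matricellular proteins laid down in wounds, TIMP1 encodes an inhibitor of metalloproteinases, and PLAUR encodes the receptor that holds the plasminogen activator urokinase at the cell surface.

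RNA was sequenced from 13 biopsies of the biceps femoris, a thigh muscle, of 4 wild-type dogs aged 9 to 10 months. Sample 0 was basal and came from dogs 2, 3 and 4 (n = 3). Samples 1 (dogs 1 to 4, n = 4), 2 (dogs 1 to 4, n = 4) and 3 (dogs 1 and 2, n = 2) were insulin stimulated. All groups share the wild-type genotype, the age range, the muscle and the sampling through a small skin incision under local anaesthesia. The labels do not say what the sample number stands for, nor the insulin dose, the time after it, or whether biopsies of 1 dog came from the same site, so an order in time is not known. Basal against insulin and sample 0 against the rest are the same split of the libraries, and stimulation and repeated sampling cannot be told apart in it.

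Libraries held between 45200416 and 81948641 counts, so that a level of 1 CPM (counts relative to the effective size of the library) stood for 43.3 to 74.8 counts. All 11 skeletal muscle markers with a row were counted in every library and summed to between 250587 and 420119 CPM. Dog 1 sample 2 stood apart: ACTA1, the actin of skeletal muscle, took 18.4% of its counts against 10.4% to 13.7% in the other libraries. CPM are not divided by transcript length, so levels are compared between libraries and never between genes.

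None of the 7 genes passed an adjusted p of 0.05 in any of the 5 comparisons (edgeR quasi-likelihood test with the dog as a block). In insulin against basal 0 of 7 were called, beside 20 of all 14629 genes (0.137%). In sample 1 against sample 0 the count was 0 of 7 beside 0 genes (0%), and in sample 2 against sample 0 it was 0 of 7 beside 7 genes (0.0479%). In sample 2 against sample 1, and for the slope over sample number among the 10 insulin libraries, it was 0 of 7 beside 0 genes (0% in both). With so few genes called anywhere, 0 of 7 is close to the background share, and it does not show that the 7 genes were unchanged. At an unadjusted p under 0.05 the members again numbered 0 in each of the 5. All genes numbered 603 (4.12%), 438 (2.99%), 724 (4.95%), 495 (3.38%) and 465 (3.18%) in the order above. With shares this small, 0 of 7 is again close to the background. DESeq2 called 104 genes (of 14625 tested) in insulin against basal and 40, 73, 0 and 0 in the others, and 0 of the 7 members in each.

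**Figure D1:**
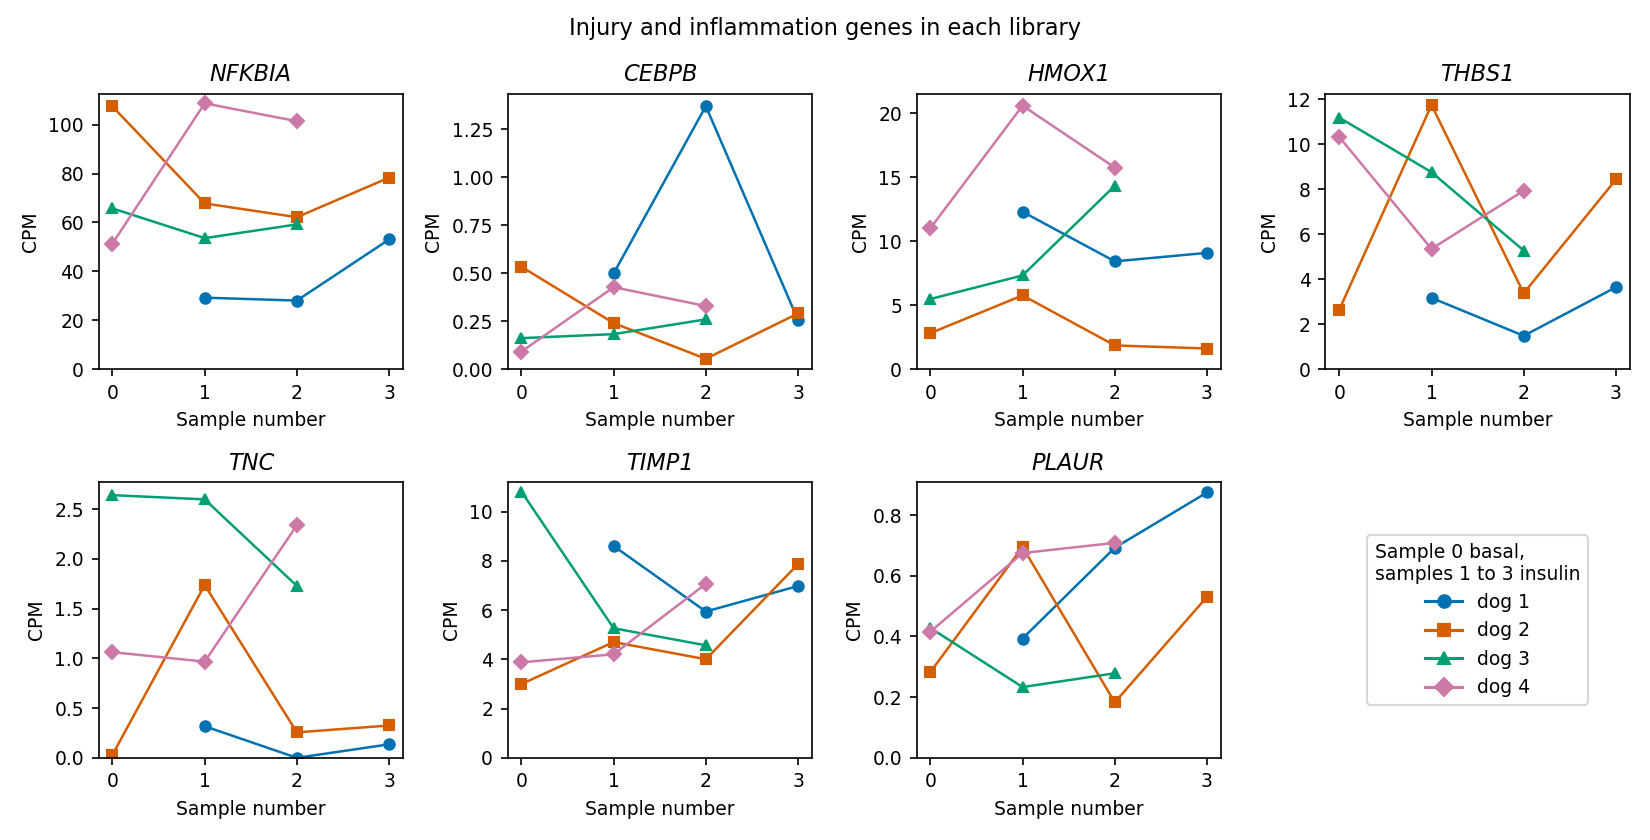
Expression of the 7 genes in each of the 13 libraries, in CPM on a linear axis that starts at 0, against the sample number (0 basal, 1 to 3 insulin). Points are single libraries and lines join the libraries of 1 dog. The lines cross in every panel. Of the 7 genes, HMOX1 is the one for which sample 1 lies above sample 0 in all 3 dogs that have both.

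NFKBIA (ENSCAFG00000013418), the NF-kB inhibitor, lay above the basal level in 1 dog and below it in the other two. Dog 4 had 51.4 CPM in sample 0, 109 in sample 1 and 101 in sample 2. Dog 2 had 107, 67.8, 62.2 and 78.3 CPM in samples 0 to 3, and dog 3 had 65.7, 53.6 and 59.2 CPM in samples 0 to 2. Dog 1, which has no sample 0, had 29.3, 28.1 and 53.1 CPM in samples 1 to 3. The insulin libraries of dog 4 were thus 2.11 and 1.97 times as high as its basal library, and those of dogs 2 and 3 were all lower than theirs. Means were 74.8 ± 29.1 (SD, n = 3) CPM in sample 0, 65.7 ± 17.9 (n = 2) in sample 3, 64.8 ± 33.3 (n = 4) in sample 1 and 62.7 ± 30.0 (n = 4) in sample 2, and the ranges of neighbours in this order overlapped. The model estimate for insulin against basal was a fold of 0.973 (95% confidence interval 0.655 to 1.45, adjusted p = 1). NFKBIA had the smallest standard error of the 7 genes in all 5 comparisons. Sample 2 against sample 1 gave a fold of 0.974 (0.644 to 1.48, adjusted p = 0.987), with 1 of 4 dogs higher. The change per step of sample number within insulin was a fold of 1.17 (0.9749 to 1.40, adjusted p = 0.987).

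BIRC3, an NF-kB target that inhibits cell death, was higher beside NFKBIA in dog 4 and parted from it in dogs 2 and 3. A sum of cytokine genes was also higher in dog 4 but was lower beside NFKBIA in dog 3. In dog 4 BIRC3 was at 0.300 CPM in sample 0, 3.28 in sample 1 and 5.21 in sample 2. The summed level of 19 cytokine and chemokine genes in the same libraries was 4.99, 20.7 and 27.8 CPM. Of these 19 genes 9 passed the filter on low counts. CSF1 had the highest mean of them over all libraries (8.09 CPM, at most 17.8 CPM), so the sum leans on few genes. In dog 3, where NFKBIA was lower in both insulin libraries, BIRC3 was at 0.177, 0.450 and 0.650 CPM in samples 0 to 2 and the cytokine sum at 13.2, 10.3 and 7.64 CPM. In dog 2 BIRC3 was at 0.110 CPM in sample 0 and between 0.183 and 0.462 CPM in the insulin libraries, while NFKBIA was lower in those. The 13 NF-kB subunits, inhibitors and feedback genes found, BIRC3 among them, summed to 165, 201 and 212 CPM in samples 0 to 2 of dog 4. In dog 3 that sum was 159, 145 and 145 CPM in samples 0 to 2. In dog 2 it was 153, 160, 173 and 124 CPM in samples 0 to 3. Dog 1 had cytokine sums of 27.1, 33.2 and 23.7 CPM in samples 1 to 3, and its first pair of these libraries held the lowest NFKBIA levels of the 13. In dog 2, where NFKBIA was highest in the basal library, the 14 immediate early genes summed to 1109 CPM in that library and to between 328 and 483 CPM in the other 3. EGR1, an immediate early transcription factor, was at 129 CPM there and at 4.97 CPM or less in each of the other 12 libraries. The part of these genes in the level of NFKBIA was not tested.

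CEBPB (ENSCAFG00000031326) was scarce, with 3 to 91 counts per library. Dog 1 had 0.499, 1.37 and 0.256 CPM in samples 1 to 3, and its sample 2, the library that stood apart, held the highest value. Dog 2 had 0.534, 0.241, 0.0549 and 0.291 CPM in samples 0 to 3, from 34, 18, 3 and 17 counts. Dog 3 had 0.162, 0.183 and 0.260 CPM and dog 4 had 0.0924, 0.427 and 0.329 CPM in samples 0 to 2. Sample 1 was higher than sample 0 in 2 of 3 dogs, with ratios of 4.63 in dog 4 (95% interval of the counts alone 1.54 to 18.7), 1.13 in dog 3 (0.444 to 2.87) and 0.451 in dog 2 (0.240 to 0.821). Over all dogs the fold of sample 1 over sample 0 was 1.01 with an interval from 0.301 to 3.39 (adjusted p = 1). A change of 3 times in either direction therefore lies inside the interval.

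HMOX1 (ENSCAFG00000001711), heme oxygenase, had the most regular pattern among dogs. Its level went from 2.83 to 5.77 CPM in dog 2, from 5.49 to 7.33 in dog 3 and from 11.02 to 20.6 in dog 4 between samples 0 and 1. These are ratios of 2.04, 1.34 and 1.87, so that 3 of 3 dogs were higher. Beyond sample 1 the dogs parted. Sample 2 was at 14.3 CPM in dog 3, above both of its other libraries, at 15.7 in dog 4 and at 1.87 in dog 2, below that dog's basal value. Dog 1 had 12.3, 8.43 and 9.09 CPM in samples 1 to 3, and sample 3 of dog 2 had 1.63 CPM. Means were 11.5 ± 6.67 (SD, n = 4) CPM in sample 1, 10.1 ± 6.33 (n = 4) in sample 2, 6.44 ± 4.18 (n = 3) in sample 0 and 5.36 ± 5.28 (n = 2) in sample 3, and the ranges of neighbours in this order overlapped.

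The model gave HMOX1 a fold of 1.76 in sample 1 against sample 0 (0.963 to 3.20, adjusted p = 1) and of 1.498 in insulin against basal (0.864 to 2.60, adjusted p = 1). The fold of sample 2 over sample 0 was 1.37 (0.750 to 2.49, adjusted p = 0.955), with 2 of 3 dogs higher. Within insulin the change per step of sample number was a fold of 0.752 (0.542 to 1.04, adjusted p = 0.987). Every interval includes 1. The comparisons with sample 0 share the same 3 basal libraries and are not independent of each other. The 13 macrophage markers found, which belong to a cell type that makes HMOX1, summed to between 28.8 and 82.8 CPM in sample 0 and between 38.1 and 48.8 CPM in sample 1, and their part was not tested. In bulk tissue, fewer cells of a type and less RNA per cell cannot be told apart.

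THBS1 (ENSCAFG00000008704), thrombospondin 1, differed between the dogs in direction. Dog 2 had 2.65, 11.7, 3.38 and 8.44 CPM in samples 0 to 3. Dog 3 had 11.2, 8.76 and 5.28 CPM in samples 0 to 2, and dog 4 had 10.3, 5.35 and 7.94 CPM. Dog 1 had 3.18, 1.49 and 3.65 CPM in samples 1 to 3. Sample 1 was thus 4.43 times sample 0 in dog 2, and 0.783 and 0.519 times sample 0 in dogs 3 and 4. Means were 8.05 ± 4.70 (SD, n = 3) CPM in sample 0, 7.26 ± 3.77 (n = 4) in sample 1, 6.04 ± 3.39 (n = 2) in sample 3 and 4.52 ± 2.75 (n = 4) in sample 2, with overlapping ranges between neighbours. Sample 2 lay below sample 1 in dogs 1, 2 and 3 and above it in dog 4, for a model fold of 0.545 (0.287 to 1.03, adjusted p = 0.902). Insulin against basal gave 0.976 (0.479 to 1.99, adjusted p = 1).

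TNC (ENSCAFG00000003426), tenascin C, was counted between 0 and 179 times per library and covered the widest range of the 7 genes on the log2 CPM scale. Dog 3 had 2.64, 2.60 and 1.73 CPM in samples 0 to 2 and dog 4 had 1.06, 0.967 and 2.34 CPM. Dog 2 had 0.0314 CPM in sample 0 (2 counts), 1.74 in sample 1 (130 counts), 0.256 in sample 2 and 0.325 in sample 3. Dog 1 had 0.318 CPM in sample 1 (21 counts), 0 in sample 2 and 0.136 in sample 3 (9 counts). The level in dog 2 was 55.3 times as high in sample 1 as in sample 0, with a counting interval of 15.01 to 462 because of the 2 basal counts. Its ratio was 0.984 in dog 3 and 0.910 in dog 4, so 1 dog carried the difference. In dog 1 sample 2, the library that stood apart, was 7.03-fold lower than sample 1 when 3 counts are taken as the level that 0 counts allow. That value leaves out the counting error of the 21 counts in sample 1. The counting interval of the ratio of sample 2 to sample 1 reached up to 0.191. These intervals cover counting error only.

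For TNC the fold of sample 1 over sample 0 was 3.51 (0.661 to 18.7, adjusted p = 1). The log2 estimate was 1.81 with all dogs, 0.44 without dog 2 and 3.26 without dog 3. Sample 2 against sample 1 gave a fold of 0.355 (0.0810 to 1.56, adjusted p = 0.902), with 3 of 4 dogs lower and dog 4 at 2.42 times its sample 1. Insulin against basal gave 1.90 (0.480 to 7.50, adjusted p = 1). The means by sample number were 1.41 ± 0.985 (SD, n = 4) CPM in sample 1, 1.24 ± 1.31 (n = 3) in sample 0, 1.08 ± 1.13 (n = 4) in sample 2 and 0.230 ± 0.134 (n = 2) in sample 3. Neighbours in this order overlapped, and sample 3 came only from the dogs with the lower levels.

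TIMP1 (ENSCAFG00000015155), the metalloproteinase inhibitor, was highest in 1 basal library. Dog 3 had 10.8 CPM in sample 0, 5.26 in sample 1 and 4.57 in sample 2. The other basal libraries were at 3.00 CPM (dog 2) and 3.88 CPM (dog 4), which were the lowest values of those dogs. Dog 2 went on with 4.70, 4.00 and 7.87 CPM in samples 1 to 3, dog 4 with 4.21 and 7.07 CPM in samples 1 and 2, and dog 1 had 8.61, 5.94 and 6.98 CPM in samples 1 to 3. Means were 7.43 ± 0.631 (SD, n = 2) CPM in sample 3, 5.90 ± 4.28 (n = 3) in sample 0, 5.69 ± 1.99 (n = 4) in sample 1 and 5.40 ± 1.38 (n = 4) in sample 2, with overlapping ranges. The fold of insulin over basal was 1.02 (0.601 to 1.74, adjusted p = 1). Its log2 estimate was 0.03 with all libraries and 0.72 without dog 3 sample 0 (adjusted p = 0.930), so the value depends on 1 basal library and the call does not.

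PLAUR (ENSCAFG00000004730), the urokinase receptor, was counted 10 to 58 times per library. In sample 0 it was at 0.283, 0.428 and 0.416 CPM in dogs 2, 3 and 4. In sample 1 it was at 0.393, 0.695, 0.233 and 0.675 CPM in dogs 1 to 4, and in sample 2 at 0.692, 0.183, 0.279 and 0.708 CPM. Sample 3 was at 0.874 CPM in dog 1 and 0.530 CPM in dog 2. These 2 libraries lay above all 3 basal ones, but dog 2 is the one dog with both, and this pair of sample numbers was not tested. Means were 0.702 ± 0.243 (SD, n = 2) CPM in sample 3, 0.499 ± 0.224 (n = 4) in sample 1, 0.4655 ± 0.274 (n = 4) in sample 2 and 0.375 ± 0.0806 (n = 3) in sample 0. The fold of insulin over basal was 1.17 (0.559 to 2.44, adjusted p = 1) and that of sample 2 over sample 1 was 0.865 (0.398 to 1.88, adjusted p = 0.957), with 3 of 4 dogs higher in sample 2 and dog 2 at 0.183 against 0.695 CPM.

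**Figure D2:**
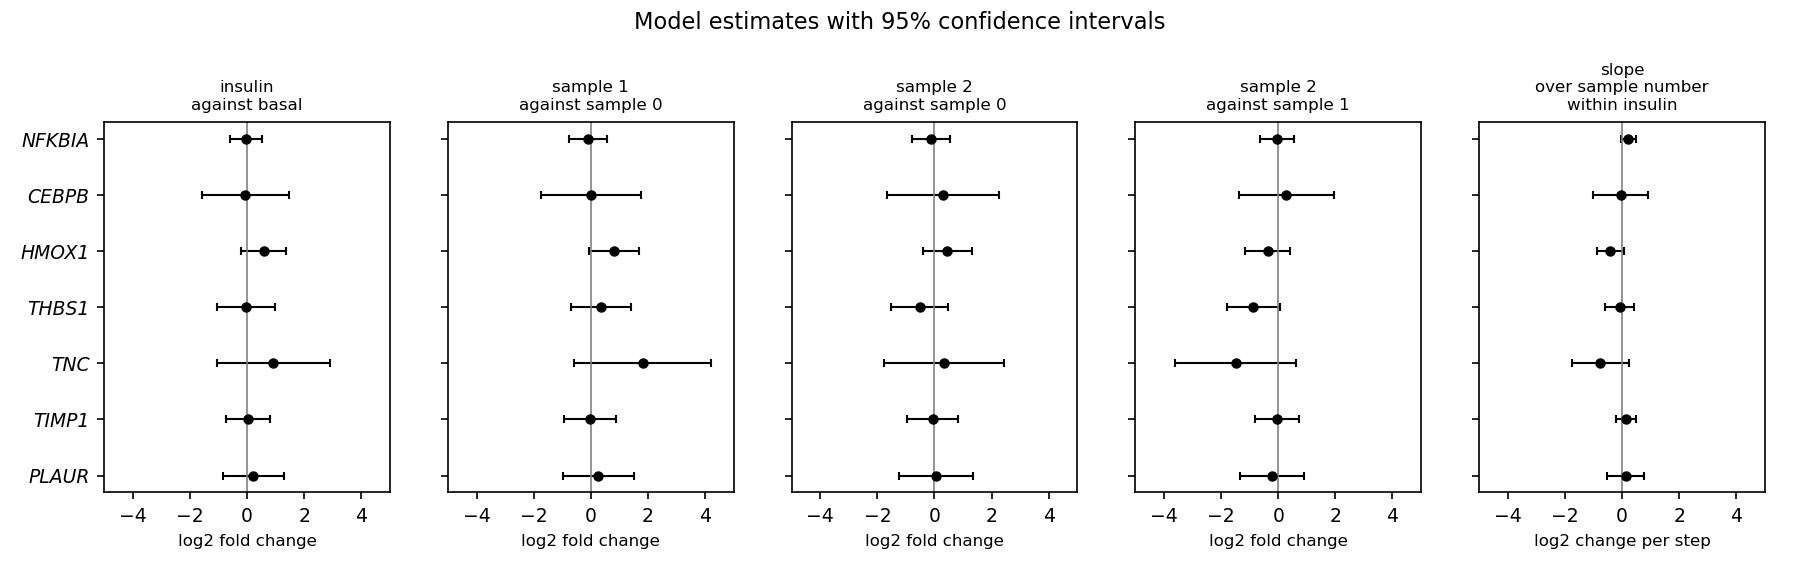
Model estimates for the 7 genes in the 5 comparisons, as log2 fold changes (the last panel as log2 change per step of sample number) with 95% confidence intervals as bars. All 35 intervals include 0. The ends nearest to 0 are those of NFKBIA (-0.037) and HMOX1 (0.061) for the slope, THBS1 in sample 2 against sample 1 (0.049) and HMOX1 in sample 1 against sample 0 (-0.055), and the intervals of TNC and CEBPB are the widest.

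Read by dog, the 7 genes did not follow the sample number in 1 way. From sample 0 to sample 1, 5 of 7 genes were higher in dog 2, 2 of 7 in dog 3 and 5 of 7 in dog 4. From sample 0 to sample 2 these counts were 3, 2 and 6 of 7. From sample 1 to sample 2, 2 of 7 were higher in dog 1, 0 of 7 in dog 2, 4 of 7 in dog 3 and 4 of 7 in dog 4. Between 47.5% and 51.1% of all tested genes were higher in these same steps.

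Dog 2 gave the clearest common movement. All 7 genes were lower in its sample 2 than in its sample 1, while 48.2% of all tested genes were higher. The difference was small for NFKBIA (ratio 0.917) and for TIMP1 (0.851), whose counting interval of 0.716 to 1.01 includes 1. Markers of several other cell types were lower in the same library: 10 fibroblast markers summed to 992 CPM in sample 1 and 466 in sample 2, 10 endothelial markers to 397 and 154 CPM, 8 smooth muscle and pericyte markers to 211 and 105 CPM, and 13 macrophage markers to 45.7 and 20.02 CPM. No fibroblast, endothelial or smooth muscle marker was at 0 in either library, and 1 macrophage marker was at 0 in each. Other sums were higher in sample 2: lymphocyte markers (84.3 and 104 CPM) and satellite cell markers (67.4 and 69.2 CPM). So were those of skin markers (48.0 and 48.9 CPM) and muscle markers (298476 and 309899 CPM). The lymphocyte sum was mostly CD79A, which averaged 96.5 CPM over all libraries, against 0.967 CPM or less for each other lymphocyte marker. Of the 9 lymphocyte markers 2 were at 0 in sample 1 and 4 in sample 2. The part of these cell types was not tested.

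From sample 2 to sample 3, available in dogs 1 and 2, 6 of 7 genes were higher in each dog. THBS1, TNC, TIMP1, PLAUR and NFKBIA were higher in both, CEBPB was lower in dog 1 and HMOX1 was lower in dog 2. The counting interval of the ratio included 1 for TNC (0.604 to 2.74) and HMOX1 (0.652 to 1.16) in dog 2. In dog 1 it did so for PLAUR (0.843 to 1.90) and HMOX1 (0.960 to 1.21). The step of dog 1 starts from the library that stood apart, whose muscle markers summed to 420119 CPM against 254554 CPM in its sample 3. Over all tested genes 52.8% were higher in dog 1 and 48.6% in dog 2. The 9 neutrophil markers summed to 35.1 and 66.5 CPM in samples 2 and 3 of dog 1 and to 25.9 and 53.5 CPM in those of dog 2, and the 13 macrophage markers to 52.1 and 60.0 CPM and to 20.02 and 53.0 CPM. Among the neutrophil genes CAMP had 0 counts in all 13 libraries and MPO was at 0 in 8, while S100A8 had 18.5 CPM or more in each. S100A8 made up most of the neutrophil sum, with a mean of 33.8 CPM against 2.13 CPM or less for each other marker. With 2 dogs there is no more than a description of this step, and the part of the leukocyte markers was not tested.

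**Figure D3:**
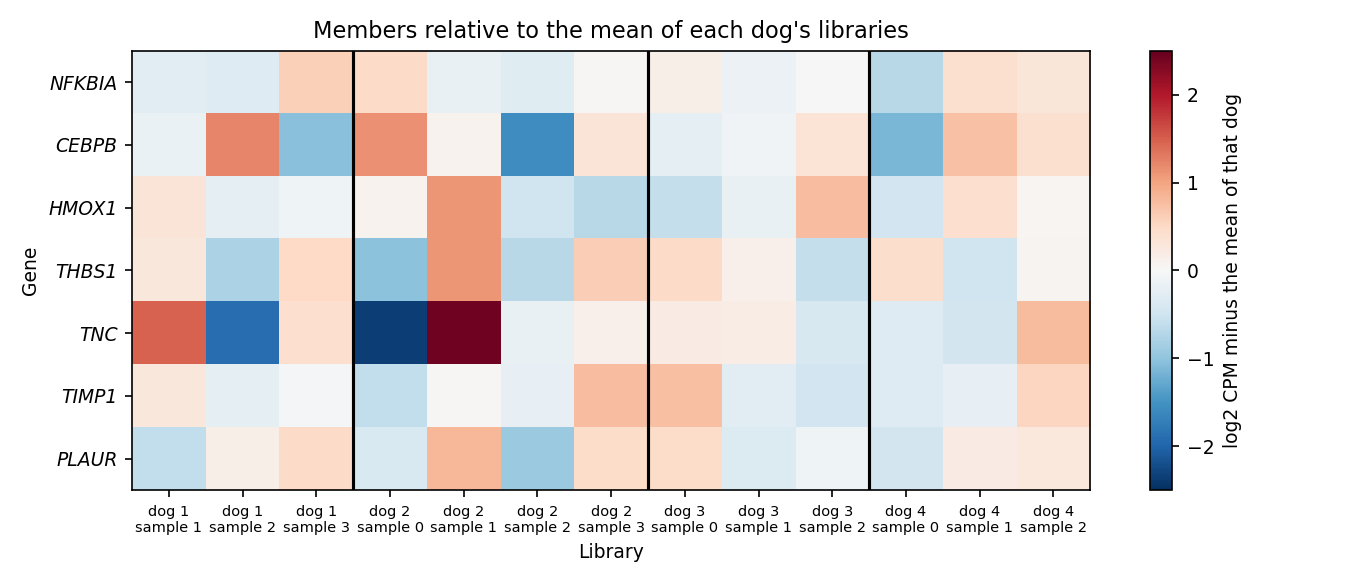
The 7 genes in each library as log2 CPM minus the mean of that dog's libraries, with red above and blue below that mean, on 1 colour scale. Black lines separate the dogs. For none of the 7 genes do the libraries of sample 1, or those of sample 2, lie on 1 side of the mean in all 4 dogs. The second library of dog 2 (sample 1) is above its mean for 6 of the 7, all but NFKBIA, though TIMP1 and CEBPB lie close to the mean, and its next library (sample 2) is below the mean for all 7.

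For several of the 7 genes much of the spread lay between dogs. The share of the variance of log2 CPM that lay between dogs was 77.7% for HMOX1, 64.5% for TNC, 64.1% for NFKBIA and 49.4% for THBS1, against a median of 33.6% over all tested genes. It was 38.6% for PLAUR, 29.6% for CEBPB and 26.6% for TIMP1. The dogs do not all have the same sample numbers, so this share can include differences between sample numbers. The SD within a dog was 1.44 on the log2 scale for TNC and 0.98 for CEBPB, against a median of 0.41 over all genes. It was 0.76 for THBS1, 0.63 for HMOX1, 0.59 for PLAUR, 0.52 for TIMP1 and 0.43 for NFKBIA, so all 7 lay above that median. Scarce genes vary more from counting alone, so the SD over all 13 libraries was also set against that of genes within 0.5 in mean log2 CPM. Among those it lay at percentile 99.4 for TNC, 98.7 for HMOX1, 95.6 for THBS1, 94.0 for NFKBIA, 73.2 for TIMP1, 69.2 for CEBPB and 34.1 for PLAUR. These percentiles describe the 13 libraries and include the differences between dogs.

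Around these genes, the lists of the same pathways held 1 called gene in all. Among 13 tested NF-kB subunits, inhibitors and feedback genes 0 were called in each of the 5 comparisons. Their median log2 fold change in insulin against basal was 0.27, beside 0.00 over all tested genes, with 9 positive and 4 negative. BIRC3 had the largest estimate, 2.28 ± 0.56 (SE, adjusted p = 0.260), from 0.196 ± 0.0965 (SD, n = 3) CPM basal to 1.34 ± 1.63 (n = 10) CPM with insulin. NFKBIB, a further inhibitor of NF-kB, was at 0.16 ± 0.20 (adjusted p = 1).

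Among cytokines and chemokines 9 of 19 found genes passed the filter, and 0 of the 9 were called in any comparison. Their median log2 estimate in insulin against basal was 1.12, with 7 of 9 positive. CCL4, which attracts macrophages, had 2.92 ± 1.04 (adjusted p = 0.824) at levels of 0.0335 ± 0.0257 CPM basal and 0.214 ± 0.285 CPM with insulin. CCL7, a monocyte chemokine, had 1.12 ± 0.49 (adjusted p = 1), and its highest value, 5.88 CPM, was in dog 1 sample 2. IL6, IL1B and TNF, cytokines that set off inflammatory responses, were near the limit of counting. IL6 had at most 6 counts in a library and was at 0 in 5 of 13, IL1B at most 12 counts and 0 in 7, and TNF at most 7 counts and 0 in 3. Those 3 did not pass the filter and were not tested.

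Of 16 tested genes of the gp130 receptors, STAT3 and its targets, 0 were called in each comparison. The median log2 estimate was -0.13 in insulin against basal. PIM1, a kinase induced through STAT proteins, had 1.33 ± 0.44 (adjusted p = 0.717), and CISH, a feedback inhibitor of cytokine receptors, had -1.24 ± 0.53 (adjusted p = 1), and its highest value, 24.0 CPM, was in dog 2 sample 0. Of 6 tested genes of plasminogen activation 0 were called in each comparison. PLAU, which encodes the ligand of the PLAUR receptor, had 0.80 ± 0.32 (adjusted p = 0.988), with 2.97, 12.8 and 4.67 CPM in the basal libraries of dogs 2, 3 and 4. SERPINE2, an inhibitor of plasminogen activators, had -0.80 ± 0.46 (adjusted p = 1).

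Of 25 tested matricellular, metalloproteinase and inhibitor genes 0 were called in each comparison. The median log2 estimate was -0.31 in insulin against basal, with 11 positive and 14 negative. TIMP4, a relative of TIMP1, had -1.13 ± 0.34 in sample 2 against sample 1 (adjusted p = 0.902), and CCN1, a matricellular protein, had -1.51 ± 0.55 in insulin against basal (adjusted p = 0.864). Of 16 tested oxidant, heme and metal stress genes 0 were called in each comparison, with a median of 0.11 in insulin against basal and 12 of 16 positive. BACH1, which represses HMOX1 until heme binds it, had -0.50 ± 0.19 (adjusted p = 0.957), and BLVRB, which encodes biliverdin reductase B, had 0.14 ± 0.20 (adjusted p = 1).

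Of 9 tested acute phase and leukocyte recruitment genes 0 were called in each comparison. CHI3L1, a glycoprotein of inflamed tissue, had 2.67 ± 1.103 in insulin against basal (adjusted p = 1) at 0.0406 ± 0.00804 CPM basal and 0.359 ± 0.383 CPM with insulin, and SELP, the adhesion molecule P-selectin, had -0.73 ± 0.68 (adjusted p = 1). Of 12 tested immediate early genes 0 were called in each comparison, with a median of -0.76 in insulin against basal and 10 of 12 negative. An unadjusted p under 0.05 was reached by 7 of the 12, 6 of them lower, beside 4.12% of all tested genes. By dog the sum of the 14 found was lower in the insulin libraries of dog 2. It was also lower in dog 3 (225, 153 and 149 CPM in samples 0 to 2) but higher in dog 4 (171, 184 and 205 CPM). EGR1 had -2.89 ± 0.82 (adjusted p = 0.453) and FOSL2, a partner in the AP-1 factor, had -0.99 ± 0.32 (adjusted p = 0.657). The basal EGR1 levels were 129, 2.15 and 1.18 CPM in dogs 2, 3 and 4.

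Among 12 tested genes of regenerating or denervated fibres, MYOD1 was called in insulin against basal, and 0 were called in the other 4 comparisons. The median log2 estimate in insulin against basal was -0.08, with 6 positive and 6 negative, the lowest at -1.06. MYOD1, the transcription factor that commits cells to muscle, rose in insulin against basal by 2.76 ± 0.36 on the log2 scale (adjusted p = 0.00561). It was at 2.97, 1.45 and 1.09 CPM in the basal libraries of dogs 2, 3 and 4 and between 4.64 and 15.4 CPM in the 10 insulin libraries, so the groups did not overlap. The call was lost in 6 of 22 alternatives. Leaving out the basal library of dog 3 gave an adjusted p of 0.0583 and that of dog 4 gave 0.0545, and leaving out all libraries of these dogs gave 0.124 and 0.143. It was 0.0675 with no block for dog and 0.342 with the insulin libraries of each dog summed. MYOG, which acts after MYOD1 in fibre formation, had 1.37 ± 0.31 in insulin against basal (adjusted p = 0.188). SLN, a regulator of the calcium pump, had 0.64 ± 0.23 in sample 2 against sample 1 (adjusted p = 0.902). In insulin against basal SLN had 0.19 ± 0.28.

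Fibroblast markers differed widely among the 3 basal libraries. The 10 fibroblast markers summed to 254, 723 and 3094 CPM in sample 0 of dogs 4, 2 and 3, to between 357 and 992 CPM in sample 1, between 466 and 1257 CPM in sample 2, and between 839 and 1100 CPM in sample 3, and none was at 0. In insulin against basal 10 of 10 had a negative estimate and 0 were called. Dog 3 sample 0, the library with that sum of 3094 CPM, also had the highest sums of matrix genes (816 CPM), endothelial markers (465 CPM), macrophage markers (82.8 CPM), neutrophil markers (75.3 CPM) and adipocyte markers (78.6 CPM). It is the library with the highest TIMP1 (10.8 CPM) and TNC (2.64 CPM), and its THBS1 (11.2 CPM) was second to dog 2 sample 1. The part of these cells in those levels was not tested.

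The 7 tested neutrophil markers all had negative estimates in insulin against basal (median -1.44, 0 called). An unadjusted p under 0.05 was reached by 5 of the 7, beside 4.12% of all tested genes. By dog the 9 markers found summed to 75.3, 26.3 and 25.3 CPM in samples 0 to 2 of dog 3. The sums were 32.8, 24.9 and 39.7 CPM in those of dog 4, and 41.2, 32.3, 25.9 and 53.5 CPM in samples 0 to 3 of dog 2. Dogs 2 and 4 thus each had an insulin library above the basal one. These sums were mostly S100A8, which averaged 33.8 CPM over all libraries, against 2.13 CPM or less for each other neutrophil marker. They therefore follow that gene and say little of the others. The 8 smooth muscle and pericyte markers all had positive estimates in sample 1 against sample 0 (median 0.61, 0 called) and negative ones in sample 2 against sample 1 (median -0.55, 0 called). Their sums were 105 to 235 CPM in sample 0, 153 to 261 CPM in sample 1, 105 to 226 CPM in sample 2 and 91.6 to 151 CPM in sample 3, with none at 0. The 10 endothelial markers also had mostly these signs, with 8 positive in the first comparison and 10 negative in the second. THBS1, HMOX1, TNC and PLAUR had estimates of the same signs as the smooth muscle markers in both comparisons. Sample 1 enters these comparisons with opposite signs, so they are not independent. The share of all genes with this pair of signs was not computed. By dog the match was partial: from sample 0 to sample 1 the smooth muscle sum was higher in dog 3 (235 to 261 CPM) and in dog 4 (105 to 153 CPM), and THBS1 was lower in both. The part of these cells was not tested. Red blood cell markers, 7 of which were found, summed to at most 4.78 CPM in any library. The 3 skin markers found summed to between 44.5 and 88.0 CPM over the libraries. KRT10 (24.4 to 60.8 CPM) and TP63 (14.4 to 31.2 CPM) made up nearly all of that, and KRT14, a keratin of basal skin cells, was at 0.201 CPM or less.

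**Figure D4:**
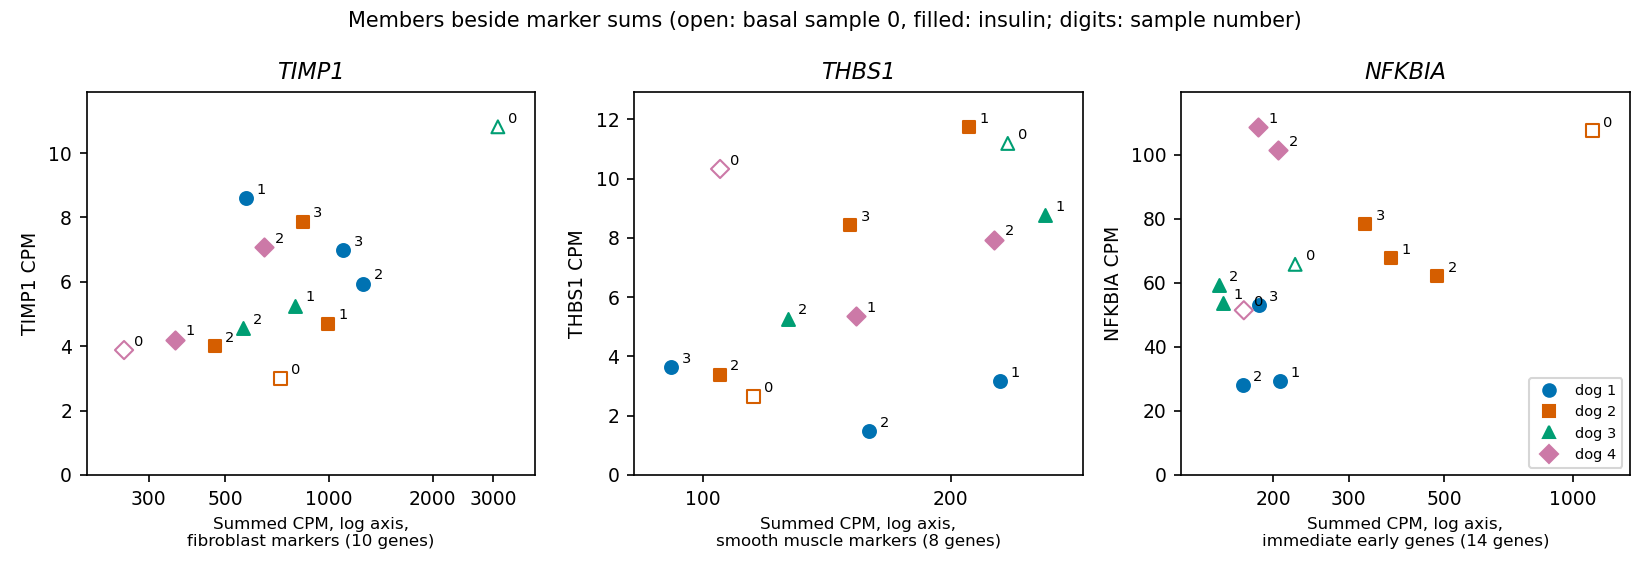
TIMP1, THBS1 and NFKBIA (CPM, linear axes from 0) against the summed CPM of fibroblast markers, of smooth muscle and pericyte markers and of immediate early genes in the same library (log axes). Open symbols are basal and filled symbols insulin libraries, colour and shape give the dog, and digits the sample number. Dog 3 sample 0 lies alone at the upper right for TIMP1 (10.8 CPM beside 3094 CPM), and dog 2 sample 0 for NFKBIA (107 CPM beside 1109 CPM).

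Within dogs the members varied together only in part. With each dog's mean removed, the Pearson correlation of log2 CPM over the 13 libraries was 0.81 between THBS1 and TNC, 0.61 between THBS1 and TIMP1 and 0.52 between THBS1 and PLAUR. HMOX1 had its highest value with TNC (0.35), NFKBIA with PLAUR (0.41) and CEBPB with HMOX1 (0.33). TNC was at the limit of counting in dog 2 sample 0 (2 counts, log2 CPM -3.95) and in dog 1 sample 2 (0 counts, -4.91). How far its correlations rest on those libraries was not tested. All these correlations are descriptions: libraries of 1 dog share an animal, and genes of 1 library share its depth and cell makeup.

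By the same measure each member had closer partners among all genes than among the members. The genes most like THBS1 were ZNF304 (0.95), ITPR2 (0.94) and DHX8 (0.94), and those most like TNC were NUAK1 (0.94), ST6GAL1 (0.92) and PDE2A (0.91). For TIMP1 they were S100A11 (0.89), PGM2 (0.88) and CARD6 (0.88), and for PLAUR they were NSG1 (0.93), ARMCX1 (0.91) and SPECC1 (0.88). For HMOX1 they were NECTIN2 (0.88), TXNDC11 (0.84) and KLHL36 (0.82), for NFKBIA they were F3 (0.84), ST3GAL4 (0.82) and SLC2A13 (0.79), and for CEBPB they were MACROD2 (0.94), ZCWPW2 (0.90) and TRIM32 (0.89). They were the highest of 8269 or 8270 correlations over 13 libraries, and the highest of so many is large by its choice.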

How the data were processed

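The deposited table gave, per the file headers, raw read counts per gene and library and a normalized signal. The deposited signal equals the count over a size factor, 1 for all genes of a library, that the median of ratios gives back, and it served only as a check. The submitters' processing notes name Bowtie 0.12.2 and CanFam3.1 without a role for either. The counting program, its strand option and the annotation release are not given in the sources used here. Libraries were made with a kit, named in the labels' protocols, that does not mark strand, so reads of overlapping or antisense genes cannot be told apart.

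The deposited counts went into edgeR 4.0.16 under R 4.3.3: filterByExpr, which left 14629 genes, TMM scaling, robust quasi-likelihood fits across all genes, Benjamini-Hochberg adjustment and a threshold of 0.05. The dog was a block, since libraries of 1 dog come from the same animal. The correlation of deviations from the group means had a median of 0.171 over 15 pairs of libraries of 1 dog and -0.0658 over 47 pairs of different dogs. Insulin libraries of 1 dog were taken as independent given the dog. Dog 1 has no basal library and entered the comparisons with sample 0 through the spread and the other sample numbers. Chi-square per gene was 144 or more in the 16 pairs of libraries of 1 group, so no library was a copy of another of its group. Pairs across groups were not compared in this way. Log2 CPM used a prior count of 2, and intervals of ratios between 2 libraries are exact binomial (Clopper-Pearson) intervals at 95%, which cover counting error only. The fits were tested on simulated data.

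The members, 9 pathway lists and 11 marker lists were chosen with earlier results of these data known. The text names, of each pathway list, every called gene and up to 2 more of lowest p in insulin against basal or in sample 2 against sample 1, and for each member the 3 genes of highest correlation with a symbol and a mean log2 CPM of at least 1. Of 261 symbols in the lists 235 were found. Alternatives were DESeq2 1.42.0, other scaling, no filter, no block, and fits without each library or dog. A planned search of promoter motifs was not run, as promoter sequences were not used here.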

Additional observations from a re-analysis of the deposited data

How the results depend on the processing

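None of the 7 genes passed the threshold in any of 742 alternative fits of 35 gene and comparison pairs. The lowest adjusted p was 0.543, for HMOX1 in the slope without dog 1 sample 3. The direction reversed in 109 of the 742 fits. It held in all alternatives for 9 of the 35 pairs: HMOX1 in insulin against basal (log2 estimates 0.31 to 0.85), in sample 1 against sample 0 (0.44 to 1.09) and in the slope (-0.55 to -0.063), TNC in sample 1 against sample 0 (0.17 to 3.26), in sample 2 against sample 1 (-2.53 to -0.38) and in the slope (-1.09 to -0.25), THBS1 in sample 2 against sample 0 (-1.002 to -0.14) and against sample 1 (-1.28 to -0.37), and NFKBIA in the slope (0.0016 to 0.31). Several of these ranges come close to 0. Each of the other 26 reversed in at least 1 alternative.

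Without the replicate block for dog, log2 estimates reversed for TNC (-0.26) and CEBPB (0.56) in insulin against basal, for THBS1 (-0.15) in sample 1 against sample 0 and for TNC (-0.21) in sample 2 against sample 0. Removing the block changed no call among the 7 genes and ended that of MYOD1 (adjusted p = 0.0675). With the insulin libraries of each dog summed, THBS1 (0.094), NFKBIA (0.052) and CEBPB (0.21) reversed in insulin against basal. With only the libraries of the sample numbers compared, NFKBIA (0.053) reversed in sample 1 against sample 0, and TIMP1 (0.019), PLAUR (-0.14), NFKBIA (0.0042) and CEBPB (-0.12) in sample 2 against sample 0. The cause was not tested.

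Fits that left out a library or a dog gave these log2 ranges where the direction reversed. In insulin against basal they were -0.65 to 0.36 for THBS1, -0.39 to 0.72 for TIMP1, -0.048 to 0.74 for PLAUR, -0.44 to 0.36 for NFKBIA and -0.69 to 1.12 for CEBPB. In sample 1 against sample 0 they were -0.44 to 0.83 for THBS1, -0.42 to 0.67 for TIMP1, -0.30 to 0.77 for PLAUR, -0.54 to 0.38 for NFKBIA and -0.73 to 1.02 for CEBPB. In sample 2 against sample 0 they were -0.49 to 0.62 for TIMP1, -0.091 to 0.86 for HMOX1, -0.67 to 1.31 for TNC, -0.29 to 0.55 for PLAUR, -0.56 to 0.35 for NFKBIA and -0.35 to 1.38 for CEBPB. In sample 2 against sample 1 they were -0.38 to 0.22 for TIMP1, -0.83 to 0.015 for HMOX1, -0.55 to 0.38 for PLAUR, -0.22 to 0.17 for NFKBIA and -0.41 to 0.78 for CEBPB. For the slope they were -0.29 to 0.21 for THBS1, -0.050 to 0.34 for TIMP1, -0.11 to 0.58 for PLAUR and -0.49 to 0.31 for CEBPB.

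Counts of called genes moved more than those of the members. In insulin against basal the 20 genes became 104 with DESeq2 (46 higher), 140 with no filter (54 higher), 6 with no replicate block and 1 with libraries summed per dog. Leaving out a library or dog gave 4 to 28. Of dog 2, omitting sample 1 gave 13 and omitting sample 2 or 3 gave 10. Of dog 3, omitting samples 0, 1 and 2 in turn gave 8, 9 and 11, and of dog 4 it gave 7, 9 and 8. The count was 6 when dog 3 was omitted and 4 when dog 4 was, and omitting dog 2 or its sample 0 turned the split to 15 of 25 and 14 of 22 higher, from 4 of 20. In sample 1 against sample 0 the 0 genes became 4 with RLE scaling, 40 with DESeq2, 16 with no filter and 6 with only the libraries compared. Leaving out gave 0 to 8, with 4, 2, 8, 1, 2 and 1 without dog 1 samples 2 and 3, dog 2 samples 0 and 2, dog 3 sample 0 and dog 4 sample 0, and 5, 6 and 1 with all of dogs 1, 2 and 4 omitted. In sample 2 against sample 0 the 7 genes became 73 with DESeq2, 28 with no filter, 0 with no replicate block and 2 with only the libraries compared. Leaving out gave 0 to 13, with 0 when sample 1 of any dog was left out. Omitting sample 2 of dogs 1 to 4 in turn gave 11, 1, 1 and 0, omitting sample 0 of dogs 2 to 4 gave 12, 2 and 3, and omitting all libraries of dogs 1, 3 or 4 gave 13, 1 or 1. In sample 2 against sample 1 the count was 0 in every alternative, and for the slope it was 0 to 1, with 1 without dog 2 sample 1. Depth limits CEBPB, PLAUR and TNC most, with as few as 3, 10 and 0 counts in a library.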
